A study of Homo sapiens with 32 samples.

Results

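CROT, F5, PLK2, GNG5, SMIM15 and SLC22A3 are 6 of the 29744 genes of the deposited expression table. They were picked because their RNA was higher after siRNA against MOCOS in the prostate cancer line C4-2B, in LNCaP or in both, so their knockdown values are given as a description, with no test. MOCOS encodes molybdenum cofactor sulfurase, which adds the sulfur atom that xanthine dehydrogenase and aldehyde oxidase need to work. The 6 genes have unrelated roles: CROT links fatty acids shortened in the peroxisome to carnitine, F5 is coagulation factor V, SLC22A3 carries organic cations across the plasma membrane, GNG5 is a gamma subunit of heterotrimeric G proteins, PLK2 is a kinase of the Polo-like family, and SMIM15 is a small single-pass membrane protein.

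LNCaP is a prostate cancer line from a lymph node metastasis, and C4-2B is a castration-resistant derivative of it. Each line was transfected with a control siRNA (siCTRL) or with siRNA against MOCOS (siMOCOS), and was given thapsigargin (TG) or vehicle. TG blocks the calcium pump of the endoplasmic reticulum, and the emptied calcium store causes unfolded proteins to build up and starts the unfolded protein response, which slows general translation and raises chaperones and stress transcription factors. The design gives 8 groups of 4 RNA-seq libraries: siCTRL, siCTRL with TG, siMOCOS and siMOCOS with TG in C4-2B, and the same in LNCaP. All libraries come from transfected cells, and the controls carried an siRNA too. The labels list 2 MOCOS siRNAs with 2 libraries each per line and drug, but the table's columns do not name the siRNA, so the 4 siMOCOS libraries per line and drug are taken as 1 group. The sources used here give no TG dose or duration. The series calls the libraries biological replicates but does not say how the cultures were separated, and p-values measure only the spread between these libraries.

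Total expected counts per library ranged from 7507226 (LNCaP siMOCOS library 4) to 27088570 (LNCaP siMOCOS with TG, library 2). Levels below are CPM, counts scaled to the library total, after trimmed mean of M values (TMM) scaling across all 32 libraries, with no correction for gene length. Tests are edgeR quasi-likelihood F-tests with Benjamini-Hochberg adjustment over all genes tested, called at an adjusted p under 0.05. MOCOS itself fell after knockdown. Its group mean was 3.42 against 31.5 CPM in C4-2B (9.2-fold lower, log2 -3.21, edgeR adjusted p = 4.48e-08) and 3.76 against 24.3 CPM in LNCaP (6.47-fold lower, log2 -2.72, edgeR adjusted p = 5.18e-08). With TG the MOCOS mean was 14.8 against 89.4 CPM in C4-2B and 14.3 against 96.1 CPM in LNCaP, so the level in TG-treated knockdown cells was above that of untreated knockdown cells. All 10 luminal prostate markers were present, KLK3 and FOLH1 among them. Markers of other cells summed to between 5.85 and 33.4 CPM per library, led by COL1A1, CD68 and VWF, with COL1A2 at 0 in every library. In C4-2B the sum ran from 5.85 to 11.1 CPM in siCTRL and from 12.2 to 14.1 CPM in siMOCOS libraries. In LNCaP it ran from 10.5 to 14.7 and from 13.8 to 23.2 CPM. The luminal sum ran from 3040 to 3330 CPM in siCTRL and from 4150 to 5310 CPM in siMOCOS libraries of C4-2B. With TG these ranges were 2050 to 2130 and 2430 to 2950 CPM. In LNCaP the luminal ranges overlapped, at 6740 to 7160 and 6710 to 8380 CPM, and with TG 3680 to 3910 and 3530 to 4350 CPM. The part of either sum in the values below was not tested. All 6 genes passed the filter on low counts in both lines, also when the siCTRL libraries of a line were filtered alone.

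Library 3 of the C4-2B siCTRL group with TG stood apart from the other 3 of its group. Its chi-square per degree of freedom over all genes (1 would be sampling noise alone) was 73.6, 97.4 and 86 against libraries 1, 2 and 4, which differed among themselves by 7.64 to 16.3. It was the highest of its group for F5, PLK2 and SLC22A3 and the lowest for CROT, GNG5 and SMIM15. LRRTM3, a gene far higher in LNCaP cells, was at 0.443 CPM in it and at 0.128, 0.173 and 0.15 CPM in libraries 1, 2 and 4. Without it the C4-2B knockdown log2 differences with TG were 2.24 for CROT, 2.97 for F5, 1.17 for SLC22A3, 2.35 for GNG5, 2.15 for PLK2 and 2.57 for SMIM15, against 2.39, 2.61, 0.72, 2.47, 2.11 and 2.59 with it. What set this library apart was not tested. The columns of a knockdown group also differ among themselves, as described after the single genes, and in bulk libraries fewer cells with a transcript and less RNA per cell cannot be told apart.

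Without TG, all 4 siMOCOS libraries lay above all 4 siCTRL libraries for 6 of 6 genes in C4-2B, where 11.8% of all genes tested did so, and for 5 of 6 in LNCaP, where 8.70% did. With TG the count was 5 of 6 in both lines, against 10.0% of genes in C4-2B and 11.2% in LNCaP. The exception in all 3 cases was SLC22A3. These shares describe the choice of the genes and support nothing further. By comparison, the edgeR test of C4-2B knockdown called 9.09% of genes higher and 8.14% lower. The LNCaP test called 6.0% higher and 9.73% lower. In TG-treated cells the shares were 9.21% and 7.60% for C4-2B, and 11.7% and 10.2% for LNCaP.

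**Figure D1:**
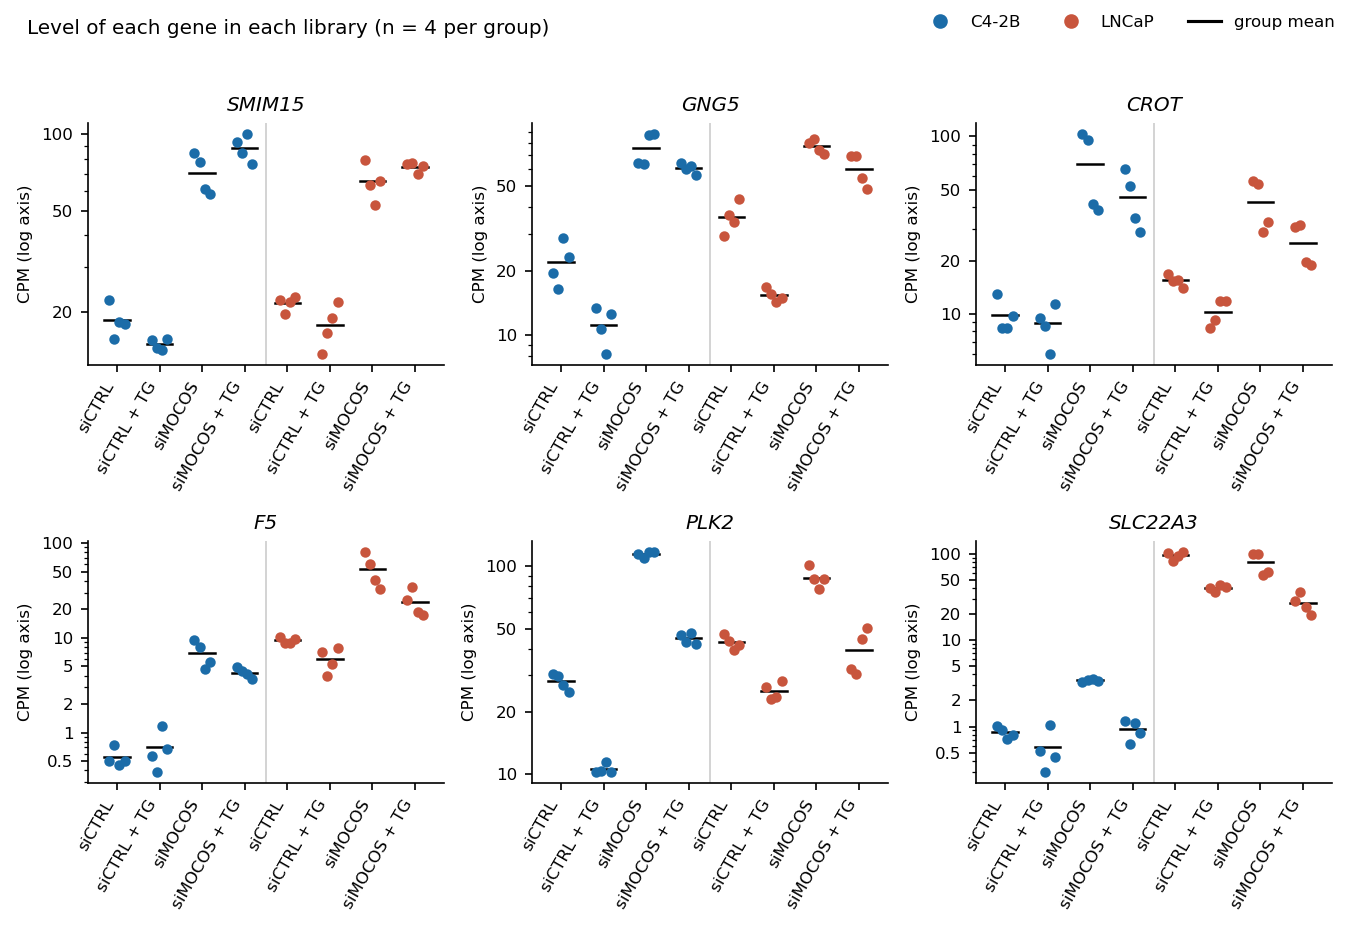
Level of each of the 6 genes in every library, in CPM on a log axis, for the 4 groups of C4-2B (left of each panel) and of LNCaP (right); points are libraries (n = 4 per group) and bars are group means. For SMIM15, GNG5, CROT and F5 every knockdown library of either line lies above every control library of the same line. Without TG, SLC22A3 has a mean of 95.6 CPM in LNCaP controls and 0.854 CPM in C4-2B controls, and with TG of 39.9 and 0.576 CPM.

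**Figure D2:**
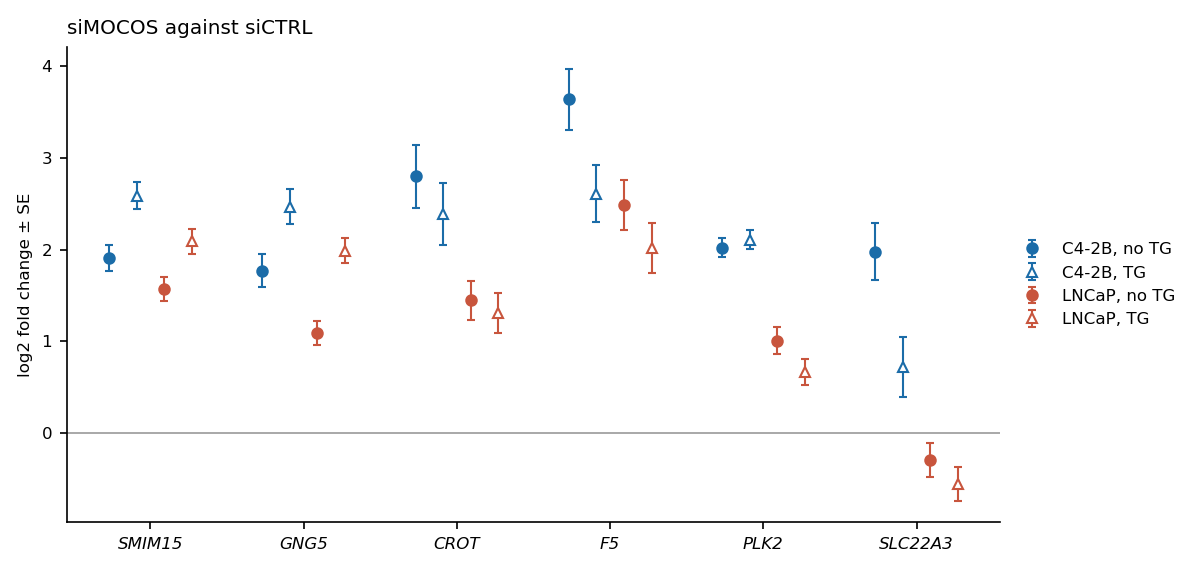
log2 fold change of siMOCOS against siCTRL with its standard error (SE) for each gene, in C4-2B and LNCaP without and with TG (4 libraries against 4). F5 in C4-2B without TG has the highest estimate, 3.64, and SLC22A3 in LNCaP lies below 0 without TG (-0.29) and with it (-0.55).

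The sequences just upstream of 3 of these genes are shown, as those of genes whose knockdown libraries lay above the controls in both lines and whose RefSeq and GENCODE v29 starts lie within 17 bases of each other. Each is the 250 bases before the RefSeq start on GRCh38.p14, written 5′ to 3′ on the gene's own strand. They lie at chr7:87345414-87345663 (plus strand, CROT), chr1:84506582-84506831 (minus strand, GNG5) and chr5:61162469-61162718 (minus strand, SMIM15). Capitals mark CCAAT, the box that the factor NF-Y binds.
CROT: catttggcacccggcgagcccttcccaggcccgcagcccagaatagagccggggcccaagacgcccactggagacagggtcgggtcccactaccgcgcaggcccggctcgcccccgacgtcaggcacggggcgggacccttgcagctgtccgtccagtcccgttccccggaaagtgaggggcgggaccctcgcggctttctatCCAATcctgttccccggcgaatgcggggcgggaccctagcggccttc
GNG5: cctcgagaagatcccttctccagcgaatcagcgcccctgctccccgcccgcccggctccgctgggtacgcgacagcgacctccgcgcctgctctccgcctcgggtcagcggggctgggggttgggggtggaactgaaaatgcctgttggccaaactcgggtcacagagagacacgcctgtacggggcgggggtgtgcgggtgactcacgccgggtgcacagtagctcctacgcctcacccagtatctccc
SMIM15: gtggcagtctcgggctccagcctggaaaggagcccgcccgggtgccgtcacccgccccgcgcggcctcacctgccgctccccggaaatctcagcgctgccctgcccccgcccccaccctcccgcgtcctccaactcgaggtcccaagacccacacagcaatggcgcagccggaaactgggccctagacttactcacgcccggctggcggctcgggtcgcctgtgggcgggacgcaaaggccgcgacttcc
RefSeq windows of 300 bases (250 before the start and 50 after) were found for 5 of the 6 genes, all but SLC22A3. They were searched on both strands for CCAAT and for the TATA box (TATAAA). The search also took in the cyclic AMP response element (TGACGTCA), the composite of ATF4 and C/EBP (TTGCATCA) and the endoplasmic reticulum stress element, which starts with CCAAT and so overlaps that search. The only matches to these motifs were 2 CCAAT boxes in CROT, 47 bases before the start and 3 bases after it. Among 35116 promoter windows of this length, 34.6% hold CCAAT, 11.5% the TATA box, 1.85% the cyclic AMP element, 0.866% the composite and 0.0769% the stress element. The windows of SMIM15, CROT and PLK2 had a GC content of 71.7%, 70% and 70%, that of GNG5 65.7% and that of F5 58%, against a median of 58.7%. PLK2 had 40 CpG dinucleotides and F5 had 7, against a median of 14.

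CROT encodes carnitine O-octanoyltransferase, and lies on the plus strand of chromosome 7 (GENCODE v29 on GRCh38, 87345681 to 87399795; coding transcripts of up to 19 exons). In C4-2B it measured 13, 8.41, 8.4 and 9.79 CPM in the siCTRL libraries and 103, 96, 41.6 and 38.7 CPM in the siMOCOS libraries. In LNCaP the siCTRL libraries had 16.8, 15.4, 15.6 and 14.1 CPM and the siMOCOS libraries 55.9, 53.7, 29 and 32.9 CPM. The groups did not overlap in either line, and in both lines the first 2 knockdown libraries were well above the other 2. The mean was 7.06-fold higher in C4-2B (69.9 ± 34.5 against 9.9 ± 2.18 CPM, SD, n = 4; log2 2.8 ± 0.344, SE) and 2.77-fold higher in LNCaP (42.9 ± 13.9 against 15.5 ± 1.14 CPM; log2 1.45 ± 0.214). With TG, C4-2B had 9.49, 8.56, 5.99 and 11.4 CPM in siCTRL and 65.9, 52.4, 34.9 and 28.9 CPM in siMOCOS libraries, a 5.13-fold higher mean. LNCaP with TG had 8.33, 9.3, 11.9 and 11.9 CPM against 30.9, 31.7, 19.6 and 18.9 CPM, a 2.44-fold higher mean. The 4 knockdown groups thus held the 4 highest means of CROT, and neighbours among them overlapped.

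The peroxisomal beta-oxidation and carnitine acyltransferase list, to which CROT belongs by function, was not uniformly raised. Of 27 genes tested in C4-2B, 7 rose and 1 fell after knockdown without TG, beside 9.09% and 8.14% of all genes. Their median log2 was 0.18, against 0 for all genes. Of 26 in LNCaP, 4 rose and 3 fell, beside 6.0% and 9.73% (median 0.13, against -0.02). With TG, 3 rose and 1 fell in C4-2B, beside 9.21% and 7.60% (median 0.12, all genes 0.01). In LNCaP with TG 4 rose and 2 fell, beside 11.7% and 10.2% (median 0.03, all genes 0.01). SCP2, whose product is the thiolase and sterol carrier of the pathway, rose in all 4 knockdown comparisons: from 83.2 to 192 CPM in C4-2B (a log2 change of 1.19 ± 0.135, edgeR adjusted p = 6.22e-06) and, in LNCaP, from 137 to 211 CPM (0.6 ± 0.0838, edgeR adjusted p = 9.84e-05). ACOX2, a branched-chain acyl-CoA oxidase, rose in C4-2B from 7.16 to 13.5 CPM (a log2 change of 0.9 ± 0.179, edgeR adjusted p = 0.00178), and SLC27A2, a very-long-chain acyl-CoA synthetase, fell there from 58.9 to 43.6 CPM (-0.45 ± 0.118, edgeR adjusted p = 0.0144).

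For each of the 6 genes, the 3 nearest RefSeq genes on either side and those overlapping it were examined, 39 in all. Without TG, 22 of them were tested in C4-2B, where 7 were called higher and 1 lower (9.09% and 8.14% of all genes). In LNCaP 24 were tested, where 1 was called higher and 2 lower (6.0% and 9.73% of all genes). With TG, 7 were called higher and 1 lower of the 22 in C4-2B (9.21% and 7.60% of all genes). Of the 24 in LNCaP with TG, 4 were called higher and 4 lower (11.7% and 10.2% of all genes). Those named below with a change were singled out after their values were seen. The genes beside CROT did not share 1 direction. ABCB4, which overlaps CROT, and ABCB1 were not expressed highly enough to test. RUNDC3B, DMTF1 and TMEM243 were called in neither line without TG. By RefSeq, TP53TG1, a non-coding RNA gene of a strand not examined here, lies at lower coordinates, with a gap of 172 bases to CROT. It rose in C4-2B from 6.47 to 12 CPM (a log2 change of 0.88 ± 0.199, edgeR adjusted p = 0.00475), and in LNCaP was 6.78 CPM in siCTRL and 9.6 CPM in siMOCOS cells (0.48 ± 0.178, edgeR adjusted p = 0.0748). With TG, TP53TG1 was called higher in C4-2B (0.68, edgeR adjusted p = 0.0268) and in LNCaP (0.62, 0.0222). Both calls ended without some single libraries, the LNCaP call for example without siCTRL TG library 1 (0.0792). SLC25A40, a mitochondrial carrier 433774 bases away on the other side, fell from 52.1 to 19.8 CPM in C4-2B (a log2 change of -1.4 ± 0.168, edgeR adjusted p = 1.17e-05) and, in LNCaP, from 44.1 to 19.5 CPM (-1.21 ± 0.157, edgeR adjusted p = 4.97e-05). Among 13458 genes tested in both lines, the gene with the pattern most like CROT over 32 libraries was CRYM, a thyroid hormone binding protein (Pearson r = 0.936 on log2(CPM + 1)). CRYM had a mean of 0.45 CPM in siCTRL and 3.21 CPM in siMOCOS cells of C4-2B, and of 0.713 and 2.67 CPM in LNCaP. A gene found by its likeness to CROT over libraries that include the knockdown follows it in that comparison by construction. No test is therefore given for CRYM, nor for the genes most like the other 5 over the 32 libraries. SCP2, the gene most like PLK2, is the exception and has tests as a gene of the peroxisomal list. Libraries share depth, line and treatment in such a correlation.

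F5 encodes coagulation factor V, the cofactor of factor Xa in thrombin formation, and lies on the minus strand of chromosome 1 (169514166 to 169586588, 25 exons). Its level in C4-2B controls was low, 0.507, 0.748, 0.457 and 0.506 CPM, from 7.002 to 9.083 expected counts per library. The C4-2B siMOCOS libraries had 9.56, 8.07, 4.66 and 5.53 CPM. LNCaP had 10.1, 8.8, 8.82 and 9.83 CPM in siCTRL and 80.3, 59.7, 40.6 and 33 CPM in siMOCOS libraries. The knockdown libraries were above all controls in both lines, and again the first 2 were higher than the other 2. The mean of F5 was 12.5-fold higher in C4-2B (6.96 ± 2.26 against 0.555 ± 0.131 CPM; log2 3.64 ± 0.333), the largest of the 6 genes' changes there, and 5.68-fold higher in LNCaP (53.4 ± 21.2 against 9.4 ± 0.688 CPM; log2 2.49 ± 0.27).

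Under TG the F5 groups also did not overlap. C4-2B had 0.574, 0.389, 1.18 and 0.675 CPM in siCTRL and 4.88, 4.43, 4.17 and 3.67 CPM in siMOCOS libraries, a 6.08-fold higher mean (log2 2.61 ± 0.309). Without siCTRL TG library 3, which stood apart over the whole profile, the log2 difference was 2.97. LNCaP had 7.15, 3.93, 5.27 and 7.81 CPM against 25.3, 34.3, 18.7 and 17.6 CPM, a 3.97-fold higher mean (log2 2.02 ± 0.272). Ordered by mean, the LNCaP knockdown groups came first (53.4, then 24 CPM with TG), followed by LNCaP controls at 9.4 CPM, which overlapped C4-2B knockdown cells at 6.96 CPM.

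Of 33 coagulation genes listed beside F5, 13 were expressed highly enough to test. After knockdown without TG, 2 rose in C4-2B, beside 9.09% of all genes (median log2 0.44, all genes 0). In LNCaP 3 rose and 1 fell, beside 6.0% and 9.73% (median 0.4, all genes -0.02). PROS1 encodes protein S, a cofactor of the activated protein C that inactivates factor V, and rose from 2.03 to 6.4 CPM in C4-2B (a log2 change of 1.64 ± 0.212, edgeR adjusted p = 2.62e-05) and, in LNCaP, from 2.79 to 6.33 CPM (1.13 ± 0.227, edgeR adjusted p = 0.00247). VWF, von Willebrand factor, is also 1 of the 2 endothelial genes among the markers of other cells, of which PECAM1 had group means of at most 0.0312 CPM. VWF rose from 1.13 to 2.73 CPM in C4-2B (a log2 change of 1.26 ± 0.251, edgeR adjusted p = 0.00187) and, in LNCaP, from 2.58 to 5.26 CPM (1.02 ± 0.22, edgeR adjusted p = 0.00425). With TG, 3 of the listed genes rose in C4-2B, beside 9.21% of all genes (median 0.43). In LNCaP with TG 1 rose and 1 fell, beside 11.7% and 10.2% (median 0.31, all genes 0.01 in both lines). The gene most like F5 over the 32 libraries was DNAH8, an axonemal dynein heavy chain (r = 0.964), at a mean of 0.947 CPM in siCTRL and 5.36 CPM in siMOCOS cells of C4-2B and of 4.75 and 12.6 CPM in LNCaP.

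SLC22A3, the organic cation and monoamine transporter also named OCT3, lies on the plus strand of chromosome 6 (160348268 to 160452581, 11 exons) and differed from the other 5 genes between the lines. In C4-2B the siCTRL libraries had 1.01, 0.902, 0.716 and 0.791 CPM, from 10.83 to 18.01 expected counts, and the siMOCOS libraries 3.26, 3.47, 3.58 and 3.4 CPM. In LNCaP the siCTRL libraries had 102, 82.5, 94.3 and 104 CPM and the siMOCOS libraries 100, 98.6, 56.7 and 61.1 CPM. The C4-2B groups were well apart, at a 4.02-fold higher mean (3.43 ± 0.134 against 0.854 ± 0.127 CPM; log2 1.98 ± 0.307). In LNCaP knockdown libraries 1 and 2 lay within the control range and libraries 3 and 4 below it (mean 79.2 ± 23.5 against 95.6 ± 9.67 CPM; log2 -0.29 ± 0.183).

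With TG, SLC22A3 measured 0.519, 0.301, 1.03 and 0.45 CPM in C4-2B siCTRL and 1.15, 0.629, 1.09 and 0.837 CPM in siMOCOS libraries. These groups overlapped, at a log2 difference of 0.72 ± 0.327, or 1.17 without siCTRL TG library 3. In LNCaP with TG the values were 40.4, 35.5, 42.9 and 40.7 CPM against 27.9, 35.6, 24 and 19.4 CPM (log2 -0.55 ± 0.186), and the groups overlapped through knockdown library 2 alone. The mean of SLC22A3 was thus higher in knockdown than in control cells of C4-2B and lower in those of LNCaP. Its lowest LNCaP group mean, 26.7 CPM, was above its highest C4-2B group mean, 3.43 CPM.

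Of 12 other organic cation and carnitine transporter genes, 6 were tested. After knockdown without TG 2 rose in C4-2B (median log2 0.8) and 1 in LNCaP (median 0.68). With TG 2 rose in each line (medians 0.77 and 0.7), against all-gene medians between -0.02 and 0.01. Of all genes, 9.09% rose in C4-2B and 6.0% in LNCaP without TG, and 9.21% and 11.7% with it. SLC22A23, an orphan member of the family, rose in all 4 comparisons, for example from 43.8 to 86.3 CPM in C4-2B (a log2 change of 0.97 ± 0.243, edgeR adjusted p = 0.00996) and, in LNCaP, from 47.2 to 87.2 CPM (0.87 ± 0.155, edgeR adjusted p = 0.00107). SLC22A5, the carnitine transporter, rose in C4-2B from 8.39 to 14.5 CPM (a log2 change of 0.77 ± 0.158, edgeR adjusted p = 0.00233). The gene most like SLC22A3 across the libraries was LRRTM3 (r = 0.986), a synaptic adhesion protein that, like SLC22A3, was far higher in LNCaP (95.5 CPM in siCTRL) than in C4-2B (0.492 CPM). After knockdown in C4-2B the log2 difference of LRRTM3 was 0.16 ± 0.478, beside 1.98 for SLC22A3.

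GNG5, the gamma 5 subunit that pairs with a beta subunit to anchor and relay signals from G protein-coupled receptors, lies on the minus strand of chromosome 1 (84498325 to 84506565, 3 or 4 exons). RefSeq places RPF1 and SPATA1 over the same locus, and GENCODE v29 lists processed copies of GNG5 that were not analysed here, so the split of reads among them is uncertain. C4-2B had 19.7, 16.4, 28.5 and 23.4 CPM in siCTRL and 64.7, 63.6, 86.7 and 87.9 CPM in siMOCOS libraries. LNCaP had 29.3, 36.7, 33.9 and 43.6 CPM and 80.1, 83.5, 74.1 and 70.7 CPM. The knockdown libraries were above the controls in both lines, with libraries 3 and 4 higher in C4-2B and libraries 1 and 2 higher in LNCaP. The mean was 3.44-fold higher in C4-2B (75.7 ± 13.4 against 22 ± 5.17 CPM; log2 1.77 ± 0.181) and 2.15-fold higher in LNCaP (77.1 ± 5.79 against 35.9 ± 5.98 CPM; log2 1.09 ± 0.131).

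With TG the GNG5 ratio was larger in both lines, and the controls were lower. C4-2B had 13.4, 10.7, 8.19 and 12.6 CPM in siCTRL and 64.6, 60.5, 62.6 and 56.8 CPM in siMOCOS libraries, a 5.45-fold higher mean (log2 2.47 ± 0.186). LNCaP had 16.8, 15.7, 14.4 and 14.9 CPM against 69.1, 69.1, 54.8 and 48.5 CPM, a 3.91-fold higher mean (log2 1.99 ± 0.136). Neighbouring groups overlapped throughout the 4 knockdown groups, which led the order from 77.1 CPM in LNCaP down to 60.4 CPM in LNCaP with TG.

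Among 16 other G protein beta and gamma genes, 9 were tested, and the changes went both ways. Without TG, 2 rose and 1 fell in each line (medians 0.21 in C4-2B and 0.3 in LNCaP, all genes 0 and -0.02). Of all genes, 9.09% rose and 8.14% fell in C4-2B, and 6.0% and 9.73% in LNCaP. With TG 4 rose in C4-2B, beside 9.21% of all genes (median 0.09). In LNCaP with TG 3 rose and 1 fell, beside 11.7% and 10.2% (median 0.16, all genes 0.01 in both). GNG7, another gamma subunit, rose in all 4 comparisons: from 5.79 to 13 CPM in C4-2B (a log2 change of 1.15 ± 0.205, edgeR adjusted p = 0.000731) and, in LNCaP, from 9.53 to 16.2 CPM (0.75 ± 0.177, edgeR adjusted p = 0.00813) without TG. GNB4, a beta subunit, fell in C4-2B from 80.1 to 47.1 CPM (a log2 change of -0.78 ± 0.176, edgeR adjusted p = 0.00498). Of the genes beside GNG5, RPF1, a ribosome production factor that overlaps it, was at log2 0.07 in C4-2B (edgeR adjusted p = 0.926) and -0.18 in LNCaP (0.667). CTBS, 43030 bases away, rose in C4-2B (0.88, edgeR adjusted p = 0.0152) and was not called in LNCaP (0.08, 0.814). DNASE2B, a lysosomal-type DNase gene 83307 bases away, rose from 1.72 to 7.07 CPM in C4-2B (a log2 change of 2.02 ± 0.185, edgeR adjusted p = 7.48e-07). In LNCaP it rose from 9.9 to 19.8 CPM (log2 0.99 ± 0.273, edgeR adjusted p = 0.0203), a call that ended without siCTRL library 1 or 2 (0.0588 and 0.0572) or siMOCOS library 1 or 2 (0.0703 and 0.0627). The pattern most like that of GNG5 was that of NAA50, an N-terminal acetyltransferase (r = 0.946), at a mean of 131 CPM in siCTRL and 250 CPM in siMOCOS cells of C4-2B and of 166 and 245 CPM in LNCaP.

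PLK2, a stress- and growth-responsive kinase that acts in centriole duplication, lies on the minus strand of chromosome 5 (58453982 to 58460260, 14 or 15 exons). It had the tightest values in C4-2B, 30.4, 29.7, 27 and 24.8 CPM in siCTRL and 114, 109, 117 and 117 CPM in siMOCOS libraries. LNCaP had 47, 43.6, 39.6 and 42 CPM and 101, 87, 77.8 and 86.6 CPM. The mean was 4.08-fold higher in C4-2B (114.2 ± 3.91 against 28 ± 2.58 CPM; log2 2.02 ± 0.105) and 2.05-fold higher in LNCaP (88.2 ± 9.72 against 43.1 ± 3.1 CPM; log2 1.01 ± 0.143), with no overlap in either. With TG, C4-2B had 10.3, 10.4, 11.4 and 10.3 CPM in siCTRL and 46.7, 43.3, 48 and 42.1 CPM in siMOCOS libraries, a 4.25-fold higher mean (log2 2.11 ± 0.107). LNCaP with TG had 26.3, 22.9, 23.6 and 28.1 CPM against 32.2, 30.4, 44.6 and 50.3 CPM, a 1.56-fold higher mean (log2 0.67 ± 0.143). The margin there was small: the lowest knockdown library had 30.4 CPM and the highest control 28.1 CPM.

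Of 4 other Polo-like kinases listed, 3 were tested. Over all genes, knockdown lowered 8.14% in C4-2B and 9.73% in LNCaP without TG, and 7.60% and 10.2% with it. PLK1 and PLK4 fell in all 4 knockdown comparisons, and PLK3 was called in none of them, at log2 0.15 in C4-2B and 0.45 in LNCaP without TG and -0.11 and 0.66 with it (median of the 3 genes -1.81 in C4-2B and -1.26 in LNCaP without TG, -1.58 and -1.1 with TG). PLK1, which drives mitotic entry and exit, fell from 139 to 40 CPM in C4-2B (a log2 change of -1.81 ± 0.2, edgeR adjusted p = 5.18e-06) and, in LNCaP, from 68.5 to 28.9 CPM (-1.26 ± 0.251, edgeR adjusted p = 0.00244). PLK4, which starts centriole duplication, fell from 26.3 to 7.23 CPM in C4-2B (a log2 change of -1.87 ± 0.172, edgeR adjusted p = 7.71e-07) and, in LNCaP, from 21.6 to 8 CPM (-1.43 ± 0.173, edgeR adjusted p = 2.47e-05). SCP2, named above for the peroxisome, had the pattern most like that of PLK2 (r = 0.952), followed by TBC1D4, a Rab GTPase-activating protein (r = 0.943).

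SMIM15 lies on the minus strand of chromosome 5 (61157709 to 61162474, 3 or 4 exons). GENCODE v29 has an antisense gene over it that was not analysed here, and since use of strand in the counting is not stated, reads of the pair may not be separable. C4-2B had 22.3, 15.7, 18.3 and 17.9 CPM in siCTRL and 84.5, 77.8, 60.9 and 58.4 CPM in siMOCOS libraries. LNCaP had 22.2, 19.6, 21.8 and 22.8 CPM and 79.5, 63.2, 52.7 and 65.4 CPM. Every knockdown library had at least 52.7 CPM and every control at most 22.8 CPM, in whichever line. The mean was 3.79-fold higher in C4-2B (70.4 ± 12.8 against 18.5 ± 2.74 CPM; log2 1.91 ± 0.144) and 3.02-fold higher in LNCaP (65.2 ± 11 against 21.6 ± 1.38 CPM; log2 1.57 ± 0.134).

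With TG the SMIM15 difference was larger in both lines. C4-2B had 15.5, 14.4, 14.2 and 15.7 CPM in siCTRL and 93.5, 84.5, 100 and 76.2 CPM in siMOCOS libraries, a 5.93-fold higher mean (log2 2.59 ± 0.147). LNCaP had 13.7, 16.6, 18.9 and 21.8 CPM against 76.3, 77.3, 69.5 and 74.8 CPM, a 4.19-fold higher mean (log2 2.09 ± 0.135). SMIM15 thus split into a knockdown level and a control level with a gap between them, and within each level neighbouring groups overlapped.

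The SMIM name stands for small integral membrane protein and not for a common function. Of 21 other SMIM genes, 11 were tested in C4-2B, where 9.09% of all genes were called higher after knockdown without TG. Among the 11, 1 was so called, SMIM14 (26.2 to 35.3 CPM, log2 0.42 ± 0.134, edgeR adjusted p = 0.0386). That call ended with no filter on low counts (adjusted p = 0.106), with limma voom (0.0564) and without any of 7 of the 8 libraries compared, and the median of the 11 genes was -0.02. NDUFAF2, an assembly factor of mitochondrial complex I and the neighbour nearest to SMIM15 at 4678 bases, was at log2 -0.06 in C4-2B (edgeR adjusted p = 0.872) and 0.04 in LNCaP (0.888). ERCC8, KIF2A and DIMT1 were called in neither line without TG. ELOVL7, 313435 bases away, rose in C4-2B (log2 1.26, edgeR adjusted p = 0.0045) and was not called in LNCaP (0.42, 0.141). ZSWIM6, whose gene lies 169790 bases from SMIM15, rose in C4-2B from 15.9 to 27.8 CPM (a log2 change of 0.8 ± 0.152, edgeR adjusted p = 0.00136) and in LNCaP was 15 CPM in siCTRL and 19.3 CPM in siMOCOS cells (0.35 ± 0.123, edgeR adjusted p = 0.0653). With TG, ZSWIM6 was called higher after knockdown in C4-2B (0.79, edgeR adjusted p = 0.00106) and in LNCaP (0.52, 0.00433). NIPA1, a magnesium transporter, was the gene most like SMIM15 (r = 0.962), at a mean of 30.3 CPM in siCTRL and 57.4 CPM in siMOCOS cells of C4-2B and of 35.3 and 51.8 CPM in LNCaP.

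The deposited table numbers the knockdown columns of each group from 1 to 4. Whether columns 1 and 2 hold one siRNA and columns 3 and 4 the other is not stated, and which siRNA a column holds cannot be told from the names. Over all genes the columns paired in each of the 4 knockdown groups. In C4-2B the chi-square per degree of freedom was 11 between columns 1 and 2, 10.9 between columns 3 and 4 and 65.1 to 78.5 across these pairs, and with TG it was 15.9, 24.2 and 62.6 to 90.2. In LNCaP it was 10.7, 5.19 and 21 to 35.7, and with TG 12.4, 9.26 and 50.1 to 56.7. Some siCTRL libraries were also far from each other. Between siCTRL libraries without TG the measure ran from 5.38 to 58.2 in C4-2B, under the values across the knockdown pairs there. In LNCaP it ran from 13.9 to 55.9, a range that takes in those values. With TG it ran from 7.64 to 97.4 in C4-2B, highest for library 3. In LNCaP with TG it ran from 8.73 to 44.4, under the values across the knockdown pairs. In C4-2B siCTRL, library 2 was at 44.7, 54.3 and 58.2 against libraries 1, 3 and 4. CROT and F5 had columns 1 and 2 above columns 3 and 4 in all 4 knockdown groups. For CROT in C4-2B the columns were 10.4, 9.69, 4.2 and 3.91 times the control mean, so that columns 1 and 2 averaged 2.48 times columns 3 and 4. The same ratio for CROT was 1.85 in C4-2B with TG, 1.77 in LNCaP and 1.63 in LNCaP with TG.

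F5 in C4-2B stood at 17.2, 14.5, 8.41 and 9.97 times its control, a ratio of 1.73 between the column pairs. In LNCaP it stood at 8.55, 6.35, 4.32 and 3.51 times its control, a ratio of 1.9, and with TG the ratios were 1.19 in C4-2B and 1.64 in LNCaP. For both genes columns 3 and 4 were nonetheless above every control library, the lowest at 1.83 times its control mean for CROT and 2.91 for F5. SLC22A3 had the same order in LNCaP alone, at 1.05, 1.03, 0.594 and 0.639 times the control. With TG its LNCaP columns stood at 0.7, 0.892, 0.601 and 0.486 times the control. Its C4-2B columns were interleaved, between 3.82 and 4.19 times the control without TG and between 1.09 and 2 times with it.

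The remaining genes had no common order. GNG5 was higher in columns 3 and 4 in C4-2B (2.94, 2.89, 3.94 and 3.99 times control) and in columns 1 and 2 in both LNCaP groups. PLK2 in LNCaP with TG stood at 1.28, 1.21, 1.77 and 2 times its control, so most of the difference there came from columns 3 and 4. In C4-2B its columns were between 3.9 and 4.2 times the control without TG and between 3.97 and 4.53 times with it. SMIM15 had columns 1 and 2 higher in C4-2B (ratio 1.36) and, by a ratio of 1.06, in LNCaP with TG, with interleaved columns in the other groups.

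In all, the column pairs were separated in 18 of 24 gene and group combinations. Such a split was common: it held for 74.0% of genes tested in the C4-2B siMOCOS group, 59.6% with TG, 57.3% in the LNCaP siMOCOS group and 68.3% with TG. The residual MOCOS level also differed, with columns 1 and 2 at 0.601 times columns 3 and 4 in C4-2B, 0.594 in C4-2B with TG and 0.63 in LNCaP with TG, but at 1.05 in LNCaP. Its part in the order of CROT and F5 was not tested.

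**Figure D3:**
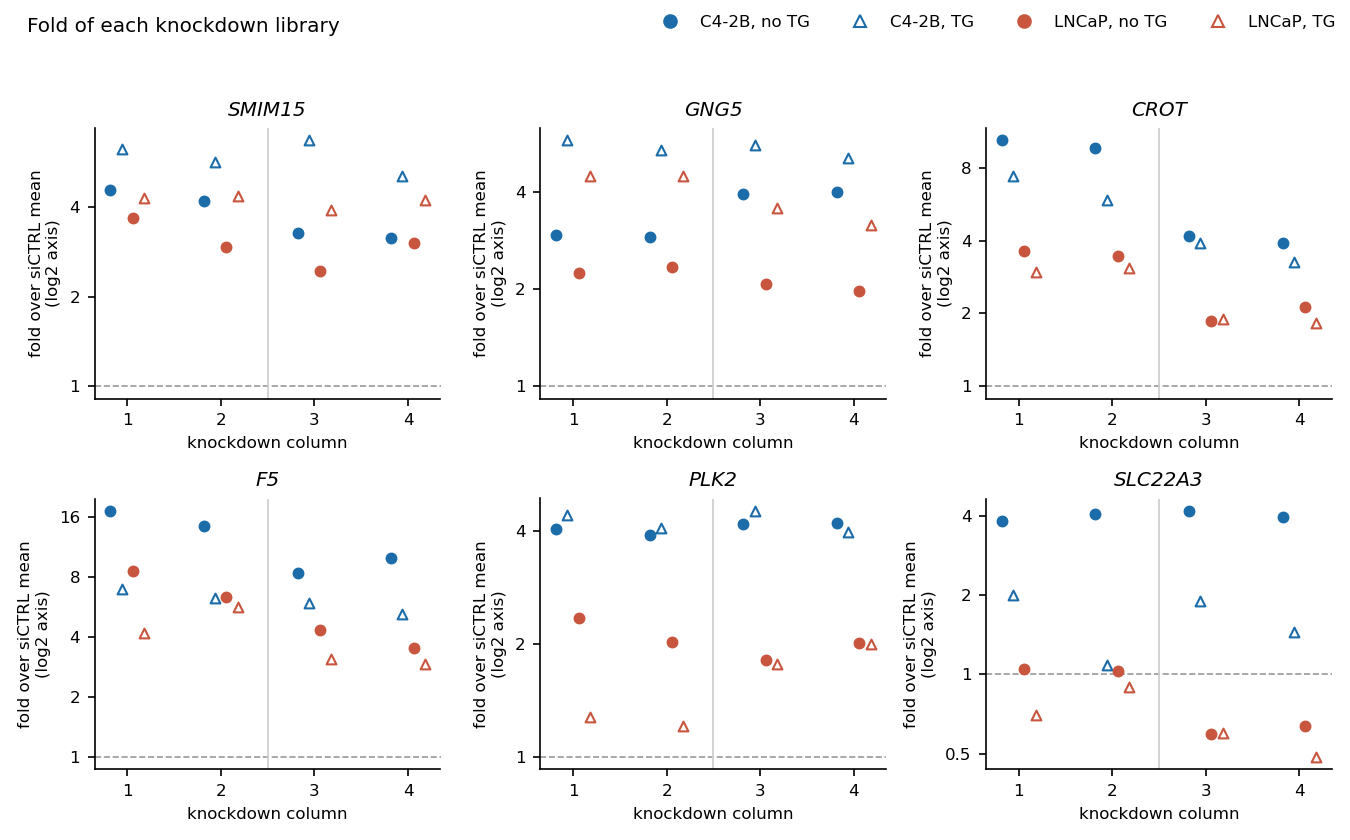
Level of each gene in knockdown columns 1 to 4 as a fold over the mean of the matching control group (log2 axis, dashed line at 1), for C4-2B and LNCaP without and with TG; each point is 1 library. CROT and F5 fall from columns 1 and 2 to columns 3 and 4 in all 4 groups, while the C4-2B columns of PLK2 without TG stay between 3.9 and 4.2.

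Across the 32 libraries most of the 6 genes followed each other, as genes chosen on the same contrast must. On log2(CPM + 1) the Pearson r was 0.896 between SMIM15 and GNG5, 0.894 between SMIM15 and CROT and 0.865 between GNG5 and PLK2. SLC22A3 followed F5 (0.786), which is also higher in LNCaP, and not SMIM15 (0.053). Over the 16 knockdown libraries with group means subtracted, where the choice of genes plays less part, CROT and F5 stayed close (0.83), CROT and SMIM15 had r = 0.748, and SMIM15 and GNG5 had r = -0.225. In the same libraries the residual MOCOS level had r = -0.763 with CROT and 0.578 with PLK2. These libraries share depth and, possibly, siRNA, and the values are descriptions.

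With group means subtracted, the genes closest to CROT were MFAP3L, EIF2S3 and EPB41L4B, each at r = 0.99, and the closest to F5 was DIAPH3 (0.973). None of the 3 genes beside CROT passed the edgeR test after knockdown in C4-2B: MFAP3L had log2 0.82 ± 0.445 (adjusted p = 0.233), EIF2S3 0.09 ± 0.211 (0.822) and EPB41L4B 0.51 ± 0.265 (0.209). DIAPH3, a formin that nucleates actin, fell from 50.5 to 15.1 CPM in C4-2B (a log2 change of -1.75 ± 0.192, edgeR adjusted p = 4.54e-06) and, in LNCaP, from 45.9 to 17.6 CPM (-1.38 ± 0.236, edgeR adjusted p = 0.000675). The library-to-library order of F5 within knockdown groups was therefore shared with a gene whose group means went the other way.

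The TG response of siCTRL cells was not itself used to choose the genes and was tested, though it shares libraries with that choice. Its untreated libraries were the low side of the knockdown comparison without TG, which favours a rise with TG. Its TG-treated libraries were the low side of the knockdown comparison with TG. If that comparison also entered the choice, it favours a fall. The tests allow for neither. In siCTRL cells TG lowered 2 of the 6 genes in C4-2B, where 19.3% of all genes tested fell and 21.2% rose, and 4 of 6 in LNCaP, where 25.1% fell and 24.6% rose. PLK2 and GNG5 fell in both lines. PLK2 went from a mean of 28 to 10.6 CPM in C4-2B (a log2 change of -1.4 ± 0.105, edgeR adjusted p = 4.55e-08) and, in LNCaP, from 43.1 to 25.2 CPM (-0.77 ± 0.144, edgeR adjusted p = 0.000248). GNG5 went from 22 to 11.2 CPM in C4-2B (a log2 change of -0.98 ± 0.182, edgeR adjusted p = 0.000411) and, in LNCaP, from 35.9 to 15.4 CPM (-1.21 ± 0.135, edgeR adjusted p = 8.89e-07). The treated and untreated libraries did not overlap for these 2 genes in either line. Marker sums moved with TG: in C4-2B siCTRL libraries those of other cells ran from 5.85 to 11.1 CPM without TG and from 15.6 to 23.7 CPM with it, and those of luminal cells from 3040 to 3330 and from 2050 to 2130 CPM. In LNCaP siCTRL libraries the ranges were 10.5 to 14.7 and 16.4 to 22 CPM for other cells, and 6740 to 7160 and 3680 to 3910 CPM for luminal cells. Their part in the TG values was not tested.

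SLC22A3 fell in LNCaP from 95.6 to 39.9 CPM (log2 -1.26 ± 0.186, edgeR adjusted p = 2.24e-05). In C4-2B its log2 difference was -0.59 ± 0.34 (95% interval -1.25 to 0.08, edgeR adjusted p = 0.174); without siCTRL TG library 3 it was -1.04 (adjusted p = 0.014). CROT fell in LNCaP from 15.5 to 10.3 CPM (log2 -0.58 ± 0.218, edgeR adjusted p = 0.0356) with no overlap between the groups, but this call was lost under 10 of 14 alternative settings, among them each of 7 fits with 1 library left out, limma voom and 1 fit of all 32 libraries (adjusted p 0.00188 to 0.15 over the 14). In C4-2B CROT differed by -0.16 ± 0.335 (-0.82 to 0.49, edgeR adjusted p = 0.724).

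SMIM15 and F5 did not pass the test in siCTRL cells. SMIM15 differed by -0.32 ± 0.142 in C4-2B (95% interval -0.59 to -0.04, edgeR adjusted p = 0.0848) and by -0.27 ± 0.134 in LNCaP (-0.54 to -0.01, edgeR adjusted p = 0.1). F5 differed by 0.36 ± 0.369 in C4-2B (-0.36 to 1.09, edgeR adjusted p = 0.448; 0 without siCTRL TG library 3), where its libraries hold 7.002 to 23.82 expected counts, and by -0.64 ± 0.279 in LNCaP (-1.18 to -0.09, edgeR adjusted p = 0.0666). The intervals of SMIM15 in both lines and of F5 in LNCaP lie below 0 before adjustment for all the genes tested.

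In siMOCOS cells the untreated libraries are values on which the genes were picked as high, which favours a fall with TG. The libraries with TG may have entered the choice too, which would favour a rise. The changes are therefore given as a description, with no test. Over all genes 17.2% fell and 20.7% rose in C4-2B siMOCOS cells, and 21.9% fell and 25.1% rose in LNCaP. PLK2 had a mean of 114.2 CPM without and 45 CPM with TG in C4-2B (log2 -1.31 ± 0.102) and of 88.2 and 39.4 CPM in LNCaP (-1.11 ± 0.142). SLC22A3 had 3.43 and 0.928 CPM in C4-2B (log2 -1.85 ± 0.295) and 79.2 and 26.7 CPM in LNCaP (-1.52 ± 0.188). The libraries with and without TG did not overlap for either gene in either line. In C4-2B knockdown cells with TG, SLC22A3 was near the 0.854 CPM of untreated controls, and those 2 groups overlapped.

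F5 had a mean of 53.4 CPM without and 24 CPM with TG in LNCaP knockdown cells (log2 -1.1 ± 0.252) and of 6.96 and 4.29 CPM in C4-2B (-0.67 ± 0.268). CROT had 42.9 and 25.3 CPM in LNCaP (-0.72 ± 0.207) and 69.9 and 45.5 CPM in C4-2B (-0.58 ± 0.316). For both genes the groups overlapped in both lines. Within each column number both genes were lower with TG in both lines. CROT in C4-2B, for example, was at 65.9 against 103, 52.4 against 96, 34.9 against 41.6 and 28.9 against 38.7 CPM. The labels do not say that equal numbers mark a shared batch. GNG5 differed by -0.28 ± 0.174 in C4-2B and by -0.3 ± 0.128 in LNCaP. SMIM15 had the higher mean with TG in both lines, 88.6 against 70.4 CPM in C4-2B (log2 0.37 ± 0.137) and 74.5 against 65.2 CPM in LNCaP (0.24 ± 0.128), with overlapping groups.

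**Figure D4:**
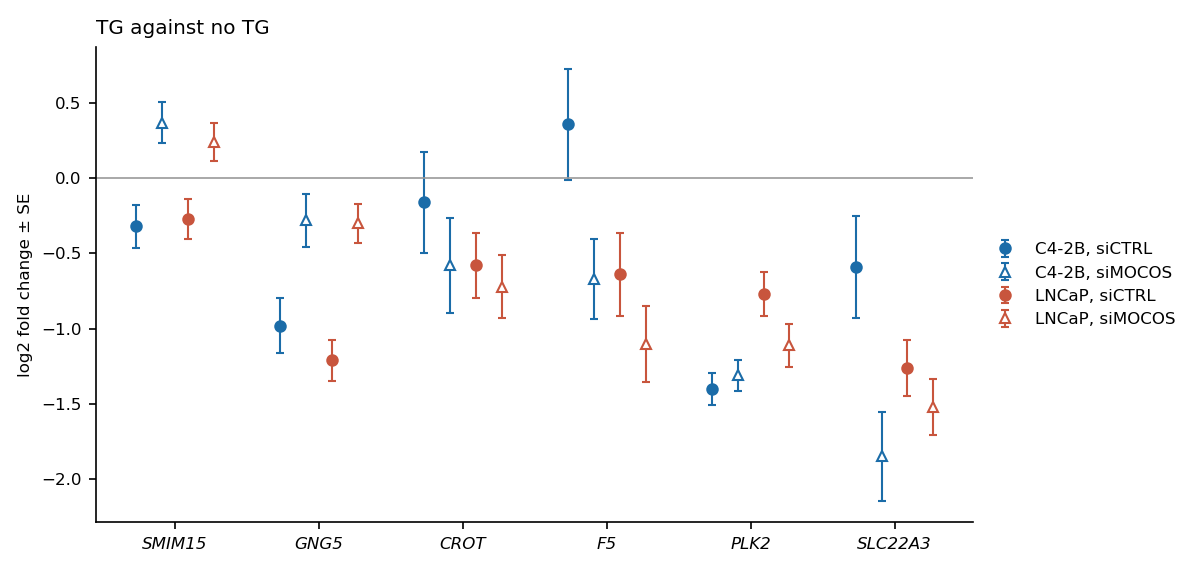
log2 fold change of TG against no TG with its SE for each gene, in siCTRL (filled circles) and siMOCOS cells (open triangles) of C4-2B and LNCaP (4 libraries against 4). PLK2 lies at -0.77 or below in all 4 comparisons, and SMIM15 lies below 0 in siCTRL cells (-0.32 and -0.27) and above 0 in siMOCOS cells (0.37 and 0.24).

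The lists were also read for TG in siCTRL cells. In the peroxisomal list 8 of 27 genes fell and 2 rose in C4-2B, beside the 19.3% and 21.2% of all genes given above (median log2 -0.26, all genes -0.01), and 14 of 26 fell and 1 rose in LNCaP, beside 25.1% and 24.6% (median -0.33, all genes -0.04). SCP2 fell from 83.2 to 43.5 CPM in C4-2B (a log2 change of -0.94 ± 0.135, edgeR adjusted p = 3.54e-05) and, in LNCaP, from 137 to 63.9 CPM (-1.1 ± 0.0849, edgeR adjusted p = 1.1e-08). ABCD3, a peroxisomal fatty acid importer, fell from 54.2 to 24.1 CPM in C4-2B (a log2 change of -1.18 ± 0.157, edgeR adjusted p = 1.65e-05) and, in LNCaP, from 67 to 31.1 CPM (-1.11 ± 0.116, edgeR adjusted p = 4.66e-07). In the coagulation list, by contrast, MCFD2, which carries factor V out of the endoplasmic reticulum together with LMAN1, rose from 106 to 234 CPM in C4-2B (a log2 change of 1.14 ± 0.15, edgeR adjusted p = 1.46e-05) and, in LNCaP, from 153 to 379 CPM (1.31 ± 0.167, edgeR adjusted p = 4.35e-06). On the same list 3 rose and 4 fell of 13 in C4-2B, and 3 rose and 5 fell in LNCaP (medians -0.43 and -0.35).

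Whether TG acted differently in LNCaP and C4-2B siCTRL cells was tested as an interaction, chosen after the values were seen, which called 0.848% of 14628 genes. The 6 genes had adjusted p-values of 0.0994 or more. The lowest was that of PLK2, whose fall was smaller in LNCaP by 0.63 ± 0.176 on the log2 scale (95% interval 0.28 to 0.97, edgeR adjusted p = 0.0994). F5 differed by -1.01 ± 0.518 (-2.02 to 0.01, adjusted p = 0.552), SLC22A3 by -0.66 ± 0.391 (-1.43 to 0.1, 0.655), CROT by -0.42 ± 0.427 (-1.25 to 0.42, 0.889), GNG5 by -0.24 ± 0.23 (-0.69 to 0.21, 0.867) and SMIM15 by 0.04 ± 0.2 (-0.35 to 0.43, 0.99), all by edgeR and as LNCaP minus C4-2B. In a fit without C4-2B siCTRL TG library 3, added after the data were seen, the difference was -0.63 for F5 (adjusted p = 0.884), -0.19 for SLC22A3 (0.989) and 0.69 for PLK2 (0.0783).

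Before knockdown or TG, 4 of the 6 genes were higher in LNCaP than in C4-2B, where 21.1% of all genes tested were higher and 20.1% lower. These siCTRL libraries were also the low side of the choice of genes. A gene picked for its rise in C4-2B more than in LNCaP is favoured to be low in C4-2B controls. The tests do not allow for this. After knockdown without TG, SLC22A3 had a higher mean in C4-2B alone. SLC22A3 was 112-fold higher (95.6 against 0.854 CPM; log2 6.78 ± 0.268, edgeR adjusted p = 1.02e-18) and F5 17-fold higher (9.4 against 0.555 CPM; log2 4.09 ± 0.361, edgeR adjusted p = 1.42e-10). GNG5 was 1.63-fold higher (log2 0.7 ± 0.161, edgeR adjusted p = 0.000854) and PLK2 1.54-fold higher (0.62 ± 0.123, edgeR adjusted p = 0.000164). The libraries of the 2 lines did not overlap for any of these 4 genes. CROT did not overlap either, at log2 0.64 ± 0.302 (95% interval 0.05 to 1.23, edgeR adjusted p = 0.0898), and was called when only the 8 untreated siCTRL libraries were fitted (0.63, adjusted p = 0.00656). SMIM15 differed by 0.21 ± 0.141 (-0.06 to 0.49, edgeR adjusted p = 0.236). All luminal markers together summed to between 3040 and 3330 CPM in C4-2B and between 6740 and 7160 CPM in LNCaP siCTRL libraries, and their part in these differences was not tested.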

How the data were processed

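Poly(A) RNA from 32 libraries of LNCaP and C4-2B cells was sequenced from strand-specific preparations, per the labels' protocols. The deposited values are expected counts per gene, which the authors estimated with STAR 2.6.1d and Salmon 1.5.2 on hg38 after Trim Galore 0.6.7, cutadapt 3.4 and FastQC 0.11.9, per the submitters' processing notes; the table is described as length-scaled, and 100% of its values above 0 are not whole. The sources used here name no gene annotation and do not say whether counting used strand. Length scaling changes counts where isoform use differs. Counts were rounded, and edgeR 4.0.16 in R 4.3.3 fitted group means per line (16 libraries; 14127 genes in C4-2B, 13806 in LNCaP) after filterByExpr and TMM scaling, with all 32 libraries (14628 genes) for the line comparisons. An SE is the log2 fold change over the root of its F statistic, and 95% intervals are 1.96 SE either side. Sequences and gene neighbours came from RefSeq, positions of genes from GENCODE v29. The fits were tested on simulated counts.

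Knockdown columns of 1 line and drug were pooled because they name no siRNA. The members, gene lists and alternatives were chosen with earlier results of these data known. Genes named beside the 6 were the closest by correlation, neighbours among the 3 nearest annotated genes on either side or overlapping, and up to 4 per list by adjusted p; which neighbours, like genes and list genes of these were printed was decided after their values were seen. Alternatives were DESeq2 1.42.0, its size factors, limma voom 3.58.1, no filter, 1 fit of all libraries, a replicate block and leaving out each library. The labels do not say that equal numbers mark a shared batch. Deviations from the group mean of same-numbered siMOCOS libraries without and with TG had r = 0.124, 0.543, 0.232 and 0.432 in LNCaP and 0.0652 to 0.6 in C4-2B. LNCaP libraries 1 and 3 and C4-2B libraries 2 and 3 were closest to another number. That number was in each case the other of 1 and 2 or of 3 and 4. In siCTRL cells of both lines some r were negative (lowest -0.538). The 2 most alike libraries of a group differed by 5.19 times sampling noise (chi-square per degree of freedom), so no pair looked like a repeat deposit.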

Additional observations from a re-analysis of the deposited data

Results flagged for a closer look

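PLK2 in C4-2B siCTRL cells with TG had library 3, at 11.4 CPM, apart from the other 3, which lay between 10.3 and 10.4 CPM. Its gap to the nearest library was 0.909 of the group's whole range, above Dixon's 95% critical value for 4 samples. It was the only such value among 48 combinations of gene and group, and chance alone passes this limit in about 1 in 20. This library also stood apart over all genes (chi-square per degree of freedom of 73.6 to 97.4 against the others of its group) and was the highest of the group for F5, SLC22A3 and LRRTM3. Without it the PLK2 log2 difference for TG in C4-2B siCTRL cells was -1.44 (-1.4 with it), and the knockdown difference with TG 2.15 (2.11 with it). The lowest PLK2 value of the matching knockdown group was 42.1 CPM.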

How the results depend on the processing

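No direction of a called result reversed under any alternative. For the 6 genes, the knockdown log2 differences of F5 and SLC22A3 in C4-2B with TG moved to 2.97 and 1.17 without siCTRL TG library 3. Leaving out 1 library gave 1392 to 2129 genes called after LNCaP knockdown (2173 with all; lowest without siMOCOS library 2) and 1925 to 3454 with TG (3025 with all; 1925 without siMOCOS TG library 1 and 1980 without siCTRL TG library 3). The ranges were 1752 to 2309 (2434) and, with TG, 1747 to 2474 (2375) for C4-2B knockdown. Under DESeq2 48.6% of the LNCaP knockdown calls without TG were higher, and under its size factors 46.8%, against 38.2%. The replicate block called 5677 genes for TG in C4-2B siCTRL cells (5725 without it) and 7382 in LNCaP (6861), and for siMOCOS cells 5454 (5360) and 6977 (6485). The block turned 2 missed tests of the 6 genes into calls, F5 for TG in LNCaP siCTRL cells (-0.67, edgeR adjusted p = 0.00458) and CROT between the lines (0.66, 0.00193). In siMOCOS cells, where no test is given, it moved CROT for TG in C4-2B to -0.52 and GNG5 in LNCaP to -0.32. The cause of these changes was not tested. Size factors moved the median over all genes by at most 0.034 (log2). Of 3520 refits of the 44 other genes examined, 160 lost a call, 40 gained one and 0 reversed. F5 and SLC22A3 in C4-2B controls rest on at most 23.82 expected counts per library, which limits their folds.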
